A study of Arabidopsis thaliana with 8 samples.

Results

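Leaf messenger RNA of Arabidopsis thaliana dcl1 mutants was sequenced from libraries made with high definition (HD) adapters and from libraries made with standard Illumina (IL) adapters, and the results below compare those adapters within dcl1. DCL1 encodes DICER-LIKE 1, the nuclease that cuts microRNAs out of their folded precursors. The comparison rests on 4 of the 8 libraries of the study, dcl1 HD replicates 1 and 2 against dcl1 IL replicates 1 and 2, and the other 4 are the wild-type (wt) libraries made in the same manner. Each RNA sample was turned into both kinds of library, so an HD and an IL library with the same genotype and number form a pair from 1 RNA sample. The sample sheet gives the genotypes as wt and dcl1, with no dcl1 allele, accession or plant age. All plants were untreated and grew at 25 °C by day and 18 °C by night with 16 hours of light. Nothing in the sample sheet says that the replicates were separate plants, so the p-values may not cover differences between plants. They rest mostly on a spread pooled over loci (1350 prior against 2 residual degrees of freedom). How well the pairs agree at a single locus thus has little weight in its p-value and SE.

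A sequencing adapter is joined to an RNA or cDNA fragment by a ligase, and ligases prefer some fragment ends over others. HD adapters are a pool whose joining ends are randomised, so that each fragment meets many different ends, whereas IL adapters present 1 fixed end. Bias of this kind has mostly been studied with small RNAs, where a read begins and ends at the ligation points. In mRNA-seq a locus is read from many fragments, and its count sums over many such ends. Because both libraries of a pair came from 1 RNA sample, a fold between them is a difference in recovery or counting and not in the plant. Within a bulk leaf sample, fewer cells of a type and less RNA per cell cannot be told apart.

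Read counts were deposited for 22546 loci, and 19521 had enough counts to be tested. The dcl1 libraries held 45929383 and 15772958 counts (HD replicates 1 and 2) and 20069662 and 32067359 counts (IL replicates 1 and 2), and the wild-type libraries held 21537881 to 40516219 counts. The shallowest library, dcl1 HD replicate 2, had rank correlations over loci of 0.932 to 0.957 (Spearman) with the other 3 dcl1 libraries, which correlated by 0.955 to 0.973 among themselves. All 8 leaf markers were detected in dcl1, summing to 59340 to 72292 CPM (counts scaled to a common library total) per library, while the seed, pollen and flower markers summed to at most 0.728 CPM. DCL1 itself gave 22.2 and 25.7 CPM with HD and 24.1 and 21.2 CPM with IL adapters in dcl1, and 20.2 to 21.3 CPM in wild type. The dcl1 and wild-type levels of DCL1 are thus close, and a count over the whole locus cannot show a lesion that leaves the transcript in place. With 10 counts as the minimum and all libraries thinned to the smallest total, HD libraries of dcl1 detected 17772 and 17066 loci and IL libraries 17161 and 17488, and the groups overlapped.

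The longest run of the dinucleotide GA within a locus (CT on the opposite strand) went with many of the largest differences. Such runs, called microsatellites or tracts, are common in plant introns and in the transcribed parts outside the coding sequence. The sequences shown here are examples of the repeats compared below: an intron tract that is among the longest, a second from an auxin response factor gene, a shorter one from another gene of that family, 1 tract in coding sequence, 1 tract at a locus that was not called, 1 mixed pyrimidine run, and 2 tracts of the trinucleotide AAG (CTT on the opposite strand). Capitals mark the tract and lower case the 15 bases on each side. Each is written 5′ to 3′ on the strand of the transcript, from the RefSeq TAIR10.1 genome. The GA or CT tracts lie at chr2:8381912-8382083 (AT2G19360, plus strand, intron), chr1:16673564-16673701 (ARF23, minus strand, intron), chr1:13108910-13108967 (ARF14, plus strand, intron), chr3:786378-786432 (UNE6, plus strand, coding exon) and chr2:16291869-16291909 (PIP2E, plus strand, intron). The mixed run lies at chr3:23328460-23328512 (CSP41A, minus strand, coding exon), and the AAG or CTT tracts lie at chr5:971396-971581 (AT5G03710, plus strand, coding exon) and chr1:10655852-10655943 (CIPK23, plus strand, intron).
AT2G19360: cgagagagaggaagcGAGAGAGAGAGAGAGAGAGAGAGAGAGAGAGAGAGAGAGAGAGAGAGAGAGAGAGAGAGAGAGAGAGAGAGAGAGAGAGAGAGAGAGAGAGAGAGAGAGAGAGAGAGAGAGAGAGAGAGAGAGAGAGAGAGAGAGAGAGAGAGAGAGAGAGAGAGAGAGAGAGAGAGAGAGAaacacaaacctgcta
ARF23: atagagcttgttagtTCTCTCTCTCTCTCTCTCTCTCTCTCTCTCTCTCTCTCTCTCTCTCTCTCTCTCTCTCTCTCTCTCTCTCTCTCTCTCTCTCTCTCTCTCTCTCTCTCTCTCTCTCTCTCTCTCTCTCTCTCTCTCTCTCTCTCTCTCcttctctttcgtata
ARF14: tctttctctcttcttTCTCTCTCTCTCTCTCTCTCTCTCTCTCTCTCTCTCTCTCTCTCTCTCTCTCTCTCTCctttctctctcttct
UNE6: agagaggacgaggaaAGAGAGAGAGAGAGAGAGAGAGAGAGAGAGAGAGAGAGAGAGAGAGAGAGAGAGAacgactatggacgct
PIP2E: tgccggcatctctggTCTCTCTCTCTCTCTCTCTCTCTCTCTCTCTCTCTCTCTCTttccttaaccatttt
CSP41A: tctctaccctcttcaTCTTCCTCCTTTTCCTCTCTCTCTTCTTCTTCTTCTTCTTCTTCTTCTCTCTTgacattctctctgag
AT5G03710: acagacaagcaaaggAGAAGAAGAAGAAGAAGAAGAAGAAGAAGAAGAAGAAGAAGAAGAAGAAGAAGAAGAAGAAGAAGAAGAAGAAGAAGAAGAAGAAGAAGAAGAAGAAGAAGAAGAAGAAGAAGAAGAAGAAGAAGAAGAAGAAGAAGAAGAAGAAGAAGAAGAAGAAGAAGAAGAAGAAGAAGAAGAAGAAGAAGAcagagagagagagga
CIPK23: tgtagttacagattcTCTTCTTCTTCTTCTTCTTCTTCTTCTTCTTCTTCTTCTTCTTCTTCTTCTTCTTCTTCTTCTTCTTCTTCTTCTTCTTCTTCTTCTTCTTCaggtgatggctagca

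Few loci differed between the adapters in dcl1, and the larger differences were mostly toward higher counts with HD. In edgeR's quasi-likelihood test with the RNA sample as a block and Benjamini-Hochberg adjustment over all loci tested, 275 of 19521 loci (1.41%) differed at an adjusted p under 0.05. HD counts were higher at 174 of them (0.891% of loci tested) and lower at 101 (0.517%). The median log2 fold of HD over IL over all loci was 0.00. A difference of at least 1 on the log2 scale was reached by 72 of the loci higher with HD and by 15 of the loci lower with HD. At 248 of the 275 loci the HD libraries did not overlap with the IL libraries (156 higher, 92 lower), whereas 17.8% of all loci tested had both HD libraries above both IL libraries and 17.1% had both below.

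The directions differed in how firmly they stood. Without the block, 34 loci were higher with HD (0.174%), all of them among the 174, and 0 were lower in edgeR's test (0%), with 521 lower at an unadjusted p under 0.05. DESeq2 with the block called 119 loci higher and 79 lower. Over the libraries left out in turn, the number higher ranged from 100 (without dcl1 HD replicate 2) to 278 (without dcl1 IL replicate 1), and the number lower from 33 (without dcl1 HD replicate 2 or without dcl1 IL replicate 2) to 318 (without dcl1 HD replicate 1). With 1 library of a pair left out, the dcl1 contrast rests on the other pair alone, which is assumed to vary like the wild-type pairs. Under all alternatives run for a locus other than the log2 threshold of 1, 28 loci stayed higher with HD, 23 of them with a GA tract of at least 40 bases, and 0 stayed lower.

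GA tracts marked many of the large differences. Of the 59 tested loci with a perfect GA tract of at least 40 bases, 31 were higher with HD adapters, 0 were lower in edgeR's test, and the median log2 fold was 1.05. By DESeq2, 23 were higher and 0 lower, and at an unadjusted p under 0.05 the numbers were 38 and 0. The share higher was 52.5%, beside 0.891% of all loci. These loci were 0.302% of the loci tested and 17.8% of those called higher. They were 30 of the 72 loci higher by at least 1 on the log2 scale and 25 of the 34 called without the block. The tract classes were defined after these values had been seen and are given as a description with no test. Counts per locus do not show whether the reads fell in the tract or elsewhere in the locus.

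The 10 loci with a tract of at least 80 bases were all called higher with HD. Summed over these 10 loci, the dcl1 HD libraries gave 696 and 978 CPM and the IL libraries 135 and 232 CPM. The wild-type libraries gave 519 and 617 CPM with HD and 168 and 195 CPM with IL. Both HD sums of dcl1 were thus above every IL sum of either genotype, and the second RNA sample of dcl1 was above the first with either adapter. Locus by locus, HD levels in dcl1 lay between 39.5 and 182 CPM and IL levels between 5.34 and 38.2 CPM. The folds of HD over IL from the edgeR fit were 2.49 to 7.04. Log2 folds within the first and second pair were nearly the same at AT2G19360 (3.25 and 2.39), ARF23 (3.28 and 2.39) and AT1G26558 (3.30 and 2.37). They were different at GCN2 (1.99 and 1.97) and ROS3 (1.15 and 1.58). Whether reads of the repeat were shared among these loci was not tested, so the loci may not be separate results.

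**Figure D1:**
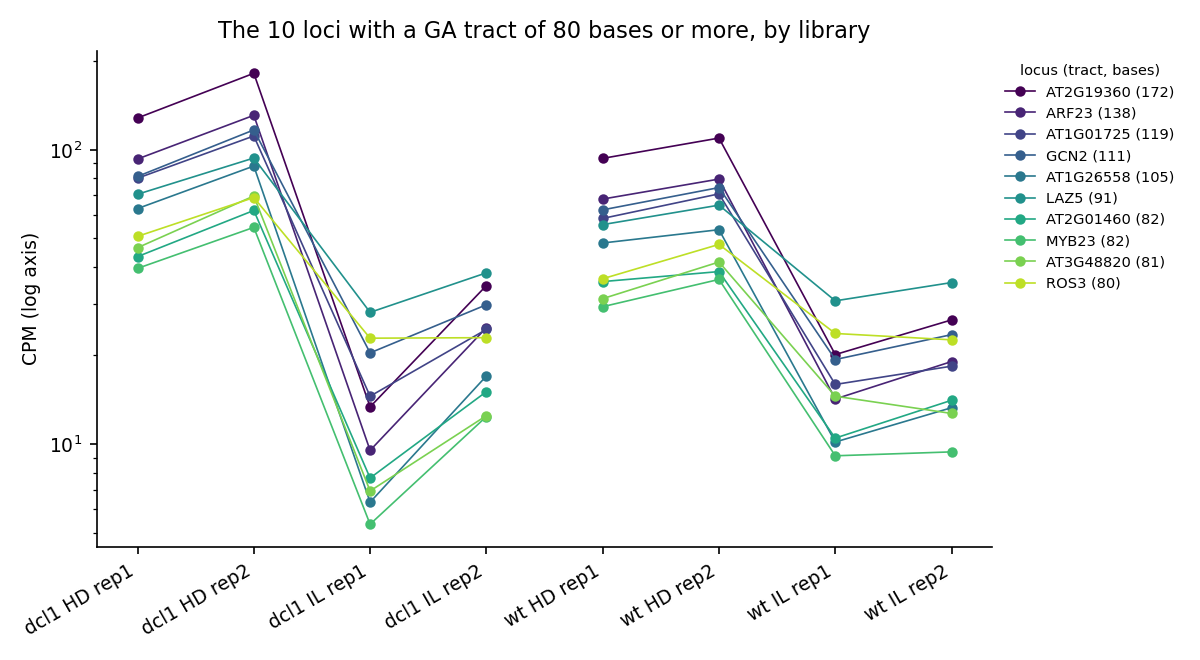
Levels in CPM (log axis) of the 10 loci with a GA tract of 80 bases or more in each of the 8 libraries, with lines joining the libraries of a genotype for each locus. At every locus both dcl1 HD points stand above both dcl1 IL points, and the gap is narrower for LAZ5 and ROS3 than for AT2G19360 or ARF23.

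AT2G19360 (chr2:8378664-8383374), annotated as a putative DUF239 protein, carries the longest GA tract, 172 bases in an intron, shown above. Its levels were 128 and 182 CPM with HD and 13.4 and 34.6 CPM with IL adapters in dcl1. Both HD libraries were far above both IL libraries, and replicate 2 was the higher of the pair with each adapter. The log2 fold was 2.81 (SE 0.16, edgeR adjusted p = 1.86e-58), and in wild type it was 2.13. ARF23 (chr1:16672582-16673952), a member of the auxin response factor family of transcription factors, holds a tract of 138 bases in an intron. It gave 93.0 and 131 CPM with HD and 9.52 and 24.9 CPM with IL, with no overlap (log2 fold 2.82, SE 0.18, adjusted p = 1.34e-48). Its relative ARF14, with the intron tract of 58 bases printed above, gave 15.4 and 22.8 CPM with HD and 2.64 and 4.05 CPM with IL. The HD libraries were again the higher, by a log2 fold of 2.52 (SE 0.40, edgeR adjusted p = 2.76e-07).

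Genes of known function were among them. GCN2, the kinase that slows translation when amino acids run short, carries 111 bases in an intron and gave 81.2 and 117 CPM with HD against 20.4 and 29.7 CPM with IL (log2 fold 1.98). MYB23, a regulator of leaf hair (trichome) development, carries 82 bases outside its coding part and gave 39.5 and 54.5 CPM with HD against 5.34 and 12.4 CPM with IL (log2 fold 2.49). Neither gene had an HD library within the range of its IL libraries. SQN, a cyclophilin that promotes the activity of ARGONAUTE1 in the microRNA pathway, carries 79 bases outside its coding part. Its levels were 40.9 and 58.0 CPM with HD and 5.50 and 14.1 CPM with IL, a log2 fold of 2.44 (adjusted p = 3.07e-20), with no overlap. LAZ5, an immune receptor of the TIR-NBS-LRR type, gave 70.6 and 93.7 CPM against 28.0 and 38.2 CPM (log2 fold 1.31), and ROS3, an RNA-binding protein of DNA demethylation, gave 50.8 and 68.8 CPM against 22.9 and 23 CPM (log2 fold 1.37). LAZ5 and ROS3 had the smallest folds among the loci with at least 80 bases, and their HD and IL libraries still did not overlap.

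The share of loci called grew with tract length. Among loci whose longest GA tract was 24 to 39 bases, 0 of 107 were called in either direction by edgeR or by DESeq2 (6 higher and 3 lower at an unadjusted p under 0.05), with a median log2 fold of 0.07. At 40 to 49 bases 1 of 21 was higher with a median of -0.00, at 50 to 59 bases 9 of 14 with a median of 1.19, and at 60 to 79 bases 11 of 14 with a median of 1.5. At 80 bases or more 10 of 10 were higher with a median of 2.40. Of the 38 loci with at least 50 bases, 30 were called higher and 35 had both HD libraries above both IL libraries. The HD-minus-IL difference in CPM also grew with tract length over the 59 loci, with Pearson's r of 0.958 in the first pair and 0.964 in the second (Spearman's rho 0.861 and 0.880). These loci share their libraries and normalization, so the correlation is a description across loci and not a test.

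**Figure D2:**
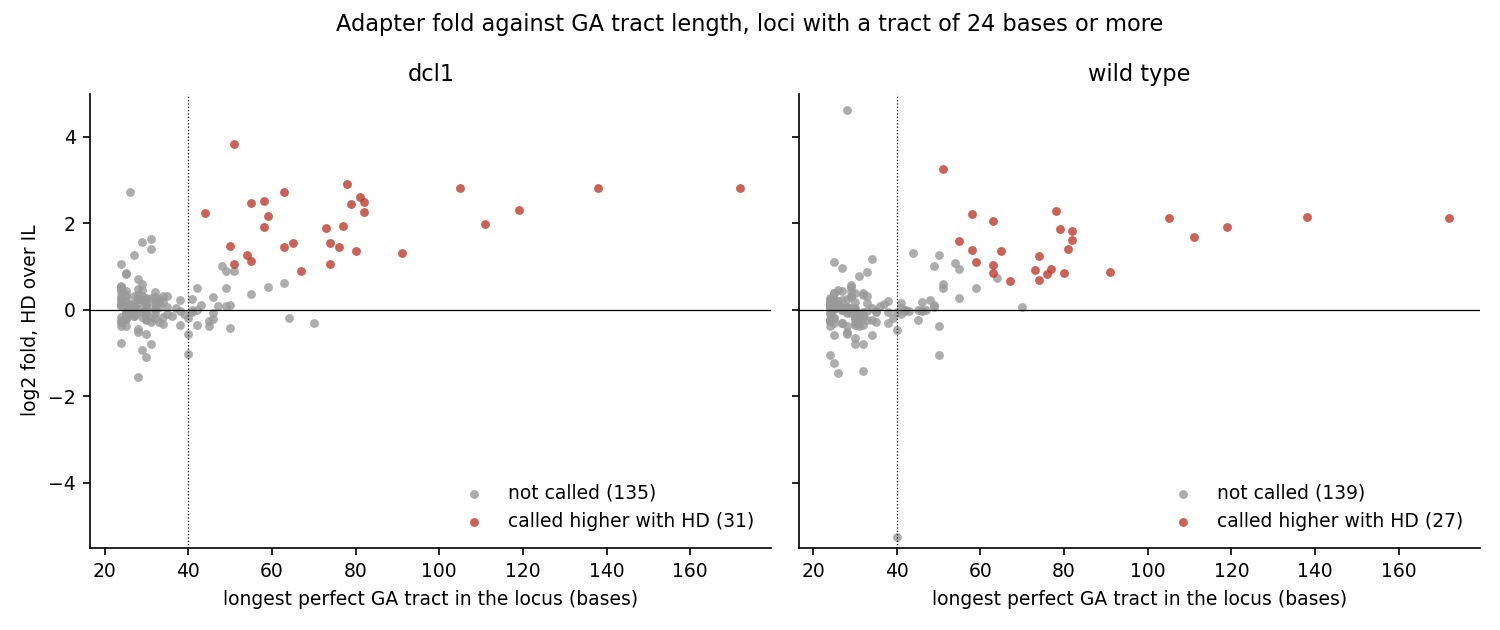
Log2 fold of HD over IL against the length in bases of the longest perfect GA tract, for loci with a tract of at least 24 bases, in dcl1 (left) and wild type (right). Each point is a locus, red where it was called higher with HD; the dotted line marks 40 bases. Folds scatter around 0 below 50 bases, and at 80 bases or more all 10 loci are red in both panels.

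Some loci with a long tract did not differ. AT2G30740, a protein kinase gene with 70 bases outside its coding part, gave 11.1 and 10.7 CPM with HD and 18.5 and 9.52 CPM with IL, and the groups overlapped (log2 fold -0.29, edgeR adjusted p = 0.874). AT1G63480, an AT-hook gene with 64 bases, gave 7.89 and 4.61 CPM with HD and 9.10 and 5.22 CPM with IL. The aquaporin gene PIP2E, with the 41 bases printed above, gave 198 and 206 CPM with HD and 196 and 209 CPM with IL, a log2 fold of -0.00 (SE 0.11). XLG2, an extra-large G protein with 42 bases in an intron, gave 28.4 and 31.6 CPM with HD and 28.1 and 32.0 CPM with IL. Both PIP2E and XLG2 thus had overlapping groups and nearly equal means. GPAT6, an acyltransferase of cutin synthesis with 44 bases, was the 1 locus called among those with 40 to 49 bases. It gave 6.77 and 10.4 CPM with HD and 0.899 and 3.28 CPM with IL (log2 fold 2.24, edgeR adjusted p = 0.0140). Without the block it was not called (edgeR adjusted p = 0.557), and DESeq2 called 0 loci of this length class.

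The tracts lay mostly outside coding sequence. In 27 of the 59 loci the tract was in an intron, and 18 of these were higher with a median log2 fold of 1.48. In 30 it was in an exon outside the coding part, and 11 of these were higher with a median of 0.50. Position went with tract length: except for MYB23, the loci with at least 80 bases all had the tract in an intron. Position and length were not separated here. UNE6, annotated as a LUC7-related protein, was the 1 locus with a coding tract. It gave 21.9 and 28.9 CPM with HD and 15 and 8.84 CPM with IL, with no overlap (log2 fold 1.12, SE 0.28, edgeR adjusted p = 0.00986). AT5G10660 was the 1 locus with a tract across an exon border, at 6.86 and 9.77 CPM with HD and 0.317 and 0.921 CPM with IL (log2 fold 3.84). Read on the strand of the transcript, the tract was CT in 51 loci, of which 27 were higher, and GA in 8, of which 4 were higher. Whether the counting used strand is not given in the sources used here, so reads from a tract cannot be assigned to a strand.

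Mixed runs and AT tracts gave few calls. Of 169 loci with an unbroken run of at least 40 purines or 40 pyrimidines but no GA or AAG tract of 40 bases, 1 was higher and 0 lower in edgeR's test, and the median log2 fold was -0.01 (1 and 0 by DESeq2, and 11 and 7 at an unadjusted p under 0.05). In 25 of them the run had at least 50 bases. Of these, 0 were called by edgeR or DESeq2, and the median was -0.18 (2 higher and 2 lower at an unadjusted p under 0.05). CSP41A, a chloroplast RNA-binding protein with the mixed run of 53 bases printed above, gave 367 and 420 CPM with HD and 354 and 309 CPM with IL. Its HD libraries were above its IL libraries, with a log2 fold of 0.25 that did not pass (SE 0.10, edgeR adjusted p = 0.274). Of 28 loci with an AT tract of at least 40 bases, 0 were called by edgeR or DESeq2, and 0 were higher and 2 lower at an unadjusted p under 0.05. Other repeat units reached 40 bases at few tested loci. Of 5 loci with an ATC tract 1 was higher in edgeR's test (median log2 fold 0.68), and of 9 with an AAC tract 0 were called (median 0.10). The 2 loci with an A tract (median 3.46) and the 1 locus each with an AGG (2.56) or AAT tract (0.28) were not called. The differences between these classes and the GA tracts were not tested.

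In wild type the GA tract loci were also higher with HD, with a smaller median. There 185 of 19521 loci were called (0.948%; 0.599% higher and 0.348% lower), and 27 of the 59 GA tract loci were higher, with a median log2 fold of 0.83. Of the 31 called in dcl1, 26 were also called in wild type. All 31 had the larger log2 fold in dcl1, but they were chosen by passing there, which favours that outcome. The 10 loci with at least 80 bases, grouped by length and not by calls, also all had the larger log2 fold in dcl1. As a set this was not tested. OMR1, called in wild type and not in dcl1, went the other way (log2 fold 0.86 in wild type and 0.63 in dcl1). The difference between the genotypes was called for 36 of all loci (0.184%), and among the GA tract loci only for AT3G48820, a sialyltransferase-family gene with 81 bases in an intron. It gave 46.5 and 69.7 CPM with HD and 6.93 and 12.5 CPM with IL in dcl1, and 31.2 and 41.6 CPM against 14.5 and 12.7 CPM in wild type. The groups did not overlap in either genotype, and the log2 folds of 2.61 and 1.41 differed by 1.19 (edgeR adjusted p = 0.0471). In dcl1 all 31 were higher in HD replicate 2 than in HD replicate 1, and 26 were higher in IL replicate 2 than in IL replicate 1, so the RNA samples or library pairs differed at these loci as well.

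At AAG tracts the adapters differed mainly in the first pair in dcl1, and more loci were called in wild type. Of 30 tested loci with an AAG tract of at least 40 bases, 7 were higher with HD and 0 lower in edgeR's test, with a median log2 fold of 0.66 (0 and 0 by DESeq2, 11 and 3 at an unadjusted p under 0.05). The share higher was 23.3%, beside 0.891% of all loci. AT5G03710 (chr5:970923-971627), annotated as a replication factor C large subunit, holds 186 bases of the repeat in its coding part, printed above. It gave 93.8 CPM with HD and 0 CPM with IL in the first pair, and 37.7 CPM with HD and 34.0 CPM with IL in the second. The HD libraries were above both IL libraries, but the gap was nearly all in the first pair (log2 fold 2.77, SE 0.25, edgeR adjusted p = 3.32e-24). By DESeq2 its adjusted p was 0.224. CIPK23, a kinase that regulates potassium and nitrate uptake, has 92 bases in an intron and gave 39.4 and 22.1 CPM with HD and 4.34 and 18.8 CPM with IL. FAF1, a regulator of shoot meristem size with 77 coding bases, gave 23.5 and 9.53 CPM with HD and 0.0529 and 7.21 CPM with IL. Both genes showed the same pattern, with IL replicate 1 far below the other 3 dcl1 libraries. Left out in turn, dcl1 HD replicate 1 or IL replicate 1 brought the 7 calls to 0, while without HD replicate 2 or IL replicate 2 there were 9. HSFA3, a heat stress transcription factor whose intron overlaps the tract of AT5G03710 on the opposite strand, gave 3.62 and 1.52 CPM with HD and 4.86 and 9.45 CPM with IL and was not called. In wild type AT5G03710 gave 195 and 85.2 CPM with HD and 8.67 and 2.29 CPM with IL, and the wild-type log2 fold of 4.83 exceeded that of dcl1 by a tested 2.06 (difference dcl1 minus wild type -2.06, edgeR adjusted p = 1.44e-06).

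By the size of the fold, the tracts filled the top of the list. The 12 largest log2 folds were taken among called loci whose groups did not overlap and whose higher group averaged 10 CPM or more. These loci comprised 8 with a GA tract and 4 with an AAG tract, the shortest of them 58 bases. The remaining GA loci of these 12 included AT1G28500 (33.7 and 48.0 CPM with HD, 3.17 and 8.69 CPM with IL, log2 fold 2.90), AT1G26558 (63.1 and 88.0 against 6.35 and 17.0 CPM, 2.81) and AT1G20060 (20.1 and 30.5 against 3.28 and 4.33 CPM, 2.72). Of the 12 loci with the largest negative folds, chosen in the same way, 0 had such a tract. HAT3.1, a homeodomain protein with a PHD finger, led them with 4.53 and 2.85 CPM with HD and 11.5 and 12.1 CPM with IL (log2 fold -1.70, edgeR adjusted p = 0.00890). MIND, which places the division ring of chloroplasts, gave 21.8 and 10.7 CPM with HD and 35.5 and 26.1 CPM with IL (log2 fold -0.99), and PTAC9, a plastid DNA-binding protein, gave 14.7 and 7.16 CPM against 16.8 and 28.2 CPM (log2 fold -1.06). The neighbouring genes AT3G11402 (13.6 and 2.43 against 14.5 and 17.6 CPM) and PRA1.A3 (11.9 and 2.12 against 14.4 and 15.3 CPM) were each lowest in HD replicate 2, the shallowest library. The 12 were called in 5 to 13 of their 17 to 19 alternatives, and none of them without the block.

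Not all loci called higher without the block had a long GA tract, and the 9 that had none were looked up after their values were seen. AT2G07706, an uncharacterized locus, gave 309 and 313 CPM with HD and 76.6 and 114 CPM with IL (log2 fold 1.73, SE 0.12). ATM2, a myosin of class VIII, gave 45.5 and 39.4 CPM with HD and 12.1 and 13.8 CPM with IL (log2 fold 1.71). ROPGEF13, an exchange factor for the ROP GTPases that direct polar cell growth, gave 252 and 239 CPM with HD and 142 and 75.6 CPM with IL (log2 fold 1.24). In each of these 3 the HD libraries agreed within a small margin and stood above both IL libraries. RWA3, an enzyme of cell wall acetylation whose AAG tract has 37 bases, gave 45.8 and 22.3 CPM with HD and 15.4 and 10.4 CPM with IL (log2 fold 1.34). AT2G05310, AT4G13500, AT5G66052, EXT4 and AT3G06895, which overlaps the snRNA U4.2, made up the remainder. The spans of ROPGEF13, ATM2 and RWA3 overlap those of the photosynthesis genes PSAH-1, LHCB3 and LHB1B2 on the opposite strand. These photosynthesis genes averaged 695, 3482 and 16690 CPM in the dcl1 IL libraries, far above the loci they overlap. Whether their reads entered the counts of ROPGEF13, ATM2 and RWA3 was not tested.

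Some genes of the photosynthetic apparatus differed by small amounts in dcl1, with most antenna calls lower and most photosystem subunit calls higher. The chlorophyll a/b-binding proteins form the antennae that collect light, and the photosystem subunits form the complexes that the antennae feed. Of 26 genes tested in the antenna list, 13 were lower with HD and 1 was higher, with a median log2 fold of -0.20. The list also holds genes annotated as chlorophyll A-B binding family proteins, such as ELIP1, NPQ4, LIL3:1 and LIL3:2. LIL3:1 was among the lower. Of 32 subunits of photosystems I and II tested, 8 were higher with HD, 1 was lower and 23 were not called, with a median of 0.14. Over all loci 0.517% were lower, 0.891% were higher and the median was 0.00. The lists were split into antenna and photosystem subunits after values had been seen.

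CAB1, an antenna protein of photosystem II, gave 23785 and 24690 CPM with HD and 30357 and 32898 CPM with IL. The HD libraries lay below the IL libraries with little spread in either group (log2 fold -0.38, SE 0.03, edgeR adjusted p = 3.96e-24). LHCA1, of the photosystem I antenna, gave 4077 and 4148 CPM with HD and 5316 and 5575 CPM with IL (log2 fold -0.40), and LHCB2.1 gave 3087 and 3483 CPM with HD and 4224 and 4085 CPM with IL (log2 fold -0.34). Neither gene had overlapping groups. NPQ4, the PsbS protein that triggers heat dissipation of excess light, was the 1 member that was higher, at 831 and 850 CPM with HD and 673 and 630 CPM with IL (log2 fold 0.37, edgeR adjusted p = 0.00304). In wild type 8 of the 26 were lower, with a median log2 fold of -0.08, and 1 was higher, which was AT5G28450 and not NPQ4.

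Among the subunits, PSBP-1 of the oxygen-evolving complex gave 2931 and 3046 CPM with HD and 2300 and 2243 CPM with IL. Its HD libraries were above its IL libraries by a log2 fold of 0.40 (SE 0.06, edgeR adjusted p = 1.80e-07). PSBX, PSBY, PSBTN and PSBQ-2 of photosystem II and PSAG and PSAD-1 of photosystem I were also higher, with log2 folds from 0.25 to 0.39, and AT1G51400 was higher by 0.56. PSAK of photosystem I was the 1 lower subunit, at 1686 and 1620 CPM with HD and 2198 and 2148 CPM with IL (log2 fold -0.39). In wild type 4 subunits were higher and 2 lower, with a median log2 fold of 0.00. Without the block 0 antenna genes were lower and 0 subunits higher in edgeR's test, and without dcl1 HD replicate 2 or IL replicate 2 the higher subunits numbered 3.

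**Figure D3:**
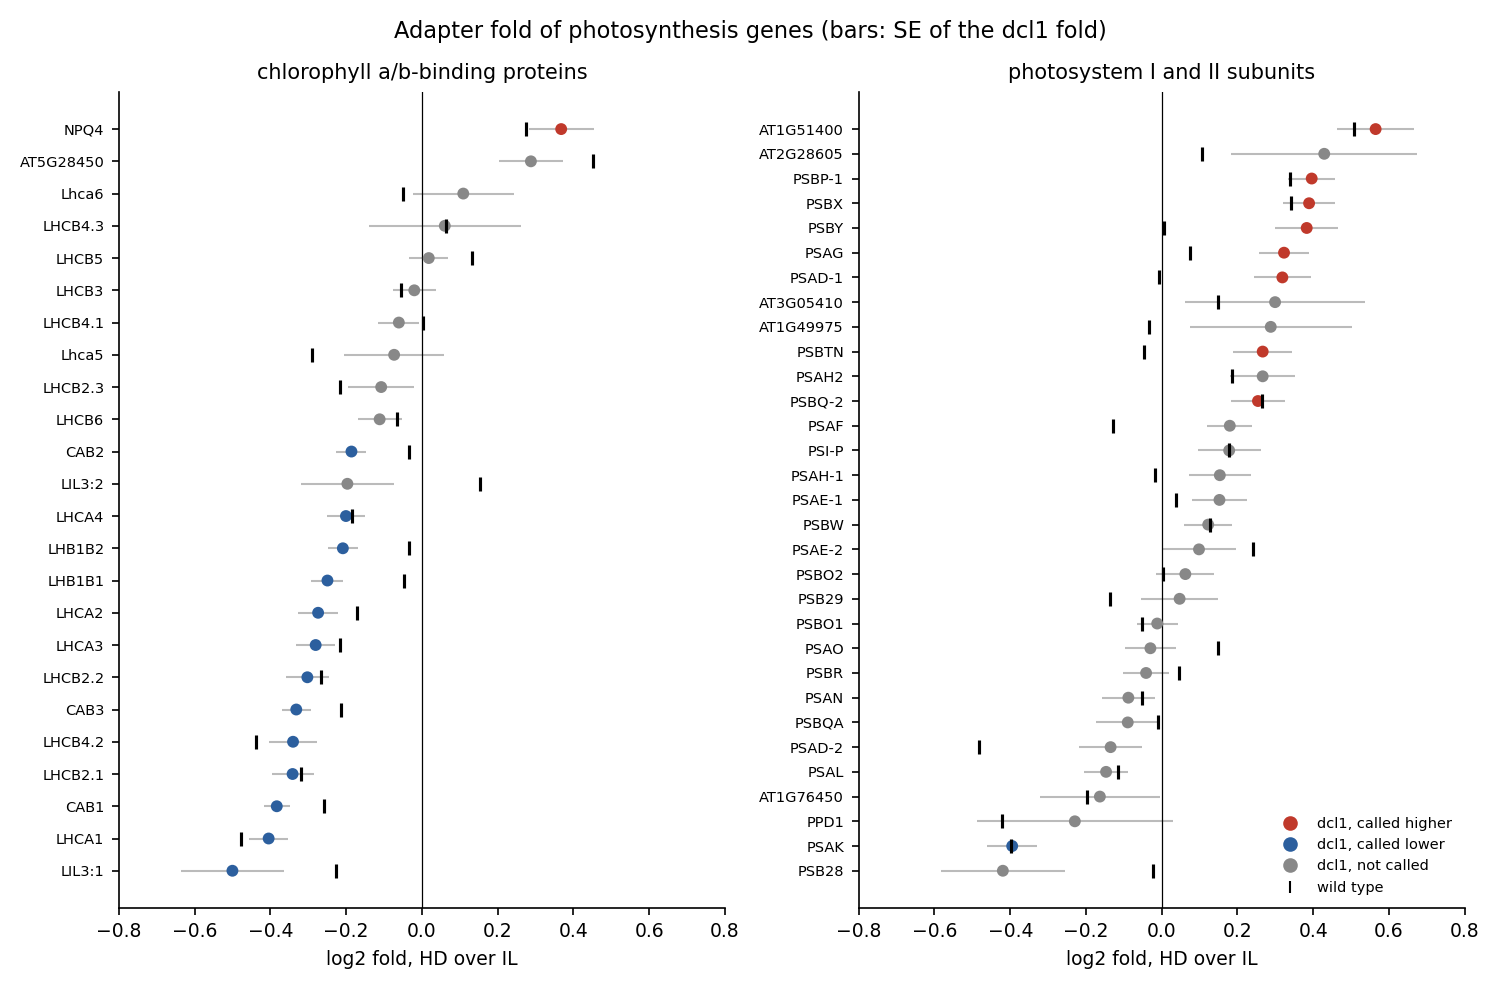
Log2 fold of HD over IL for chlorophyll a/b-binding proteins (left) and subunits of photosystems I and II (right) with a mean of at least 10 CPM in the IL libraries of dcl1. Points are the dcl1 folds with their SE, red where called higher, blue where called lower and grey where not called, and black ticks are the wild-type folds. Most antenna genes lie left of 0, and CAB1 at -0.38 and PSBP-1 at 0.40 mark the opposite sides.

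Some genes for structural cell wall proteins were higher with HD adapters in dcl1, and fewer were in wild type. Of 202 tested genes of this list (247 listed), which holds arabinogalactan proteins, extensins and other glycine-rich or proline-rich wall proteins, 10 were higher and 0 lower in edgeR's test (9 and 0 by DESeq2, 31 and 7 at an unadjusted p under 0.05), with a median log2 fold of 0.11. The share higher was 4.95%, beside 0.891% of all loci. AGP16, an arabinogalactan peptide, gave 101 and 179 CPM with HD and 63.9 and 79.5 CPM with IL (log2 fold 0.91, SE 0.12, edgeR adjusted p = 2.52e-10). AGP15, of the same family, gave 321 and 418 CPM with HD and 239 and 277 CPM with IL (log2 fold 0.51). For both peptides the HD libraries were above the IL libraries, and replicate 2 was the higher with either adapter. PRP4, a proline-rich wall protein, gave 871 and 828 CPM with HD and 726 and 602 CPM with IL (log2 fold 0.36). In wild type the log2 fold of PRP4 was -0.14, and the difference between the genotypes passed edgeR's test (0.50, adjusted p = 0.0177). EXT4, an extensin, was counted at 0.776 and 1.15 CPM with HD and was listed at 0 CPM in both IL libraries. Without the block 1 gene of the list was called. The number was 1 without dcl1 HD replicate 2 and 2 without dcl1 IL replicate 2. In wild type 4 of the 202 genes were higher and 1 was lower, with a median log2 fold of -0.03.

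Small nuclear RNAs (snRNAs), the RNA cores of the spliceosome, were mostly higher with HD, but at the U2 copies 1 of the HD libraries alone was high. Of 13 snRNA loci tested, 8 were higher and 0 lower in edgeR's test (2 and 0 by DESeq2, 9 and 0 at an unadjusted p under 0.05), with a median log2 fold of 0.58. The share higher was 61.5%, beside 0.891% of all loci, and the loci include near-identical copies. U1.5 gave 26.7 and 32.2 CPM with HD and 12.5 and 20.2 CPM with IL (log2 fold 0.88, SE 0.18, edgeR adjusted p = 4.37e-04). U4.2 gave 51.4 and 78.7 CPM with HD and 35.1 and 42.7 CPM with IL (log2 fold 0.72). Both had HD libraries above their IL libraries. U2.7 gave 73.4 and 198 CPM with HD and 84.1 and 75.4 CPM with IL (log2 fold 0.60, edgeR adjusted p = 3.97e-04). Only HD replicate 2 was high, and the groups overlapped. The 6 U2 copies called had nearly the same counts, and reads of near-identical copies cannot be assigned to 1 of them. Without dcl1 HD replicate 2 or without IL replicate 2, 1 snRNA was called. In wild type U2.7 gave 386 and 326 CPM with HD and 96.2 and 127 CPM with IL. Over the alternatives the log2 fold of U2.7 ranged from -0.20 to 1.40, while those of U1.5 and U4.2 kept their sign. A further 4 loci called higher, AT1G16820, AT3G06895, AT3G57770 and AT4G23420, overlap an annotated snRNA.

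Ribosomal RNA, which the purification of messenger RNA should deplete, was called slightly lower with HD in dcl1 and higher in wild type. The 4 rRNA loci tested were all called lower, beside 0.517% of all loci. DESeq2 called 2 of them, and without the block 0 were called. The 18S locus AT2G01010 gave 130470 and 91978 CPM with HD and 146434 and 94359 CPM with IL, so HD was lower in each pair while the groups overlapped (log2 fold -0.10, SE 0.02, edgeR adjusted p = 0.00468). It passed in 7 of its 18 alternatives, and by DESeq2 its adjusted p was 0.561. AT2G01020 and AT3G41979, whose counts were identical, gave 4725 and 6225 CPM with HD and 5659 and 8430 CPM with IL (log2 fold -0.35). In wild type the log2 folds were 0.63 for AT2G01010 and 0.88 for AT2G01020. The differences between the genotypes of -0.73 and -1.23 passed edgeR's test (adjusted p = 5.03e-82 and 5.12e-63). As a share of all counts, rRNA was 27.3% and 20.5% with HD and 28.7% and 20.9% with IL in dcl1, and 26.2% and 26.9% with HD and 17.3% and 19.5% with IL in wild type. In dcl1 the share followed the RNA sample more than the adapter, and in wild type the HD libraries lay above the IL libraries.

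**Figure D4:**
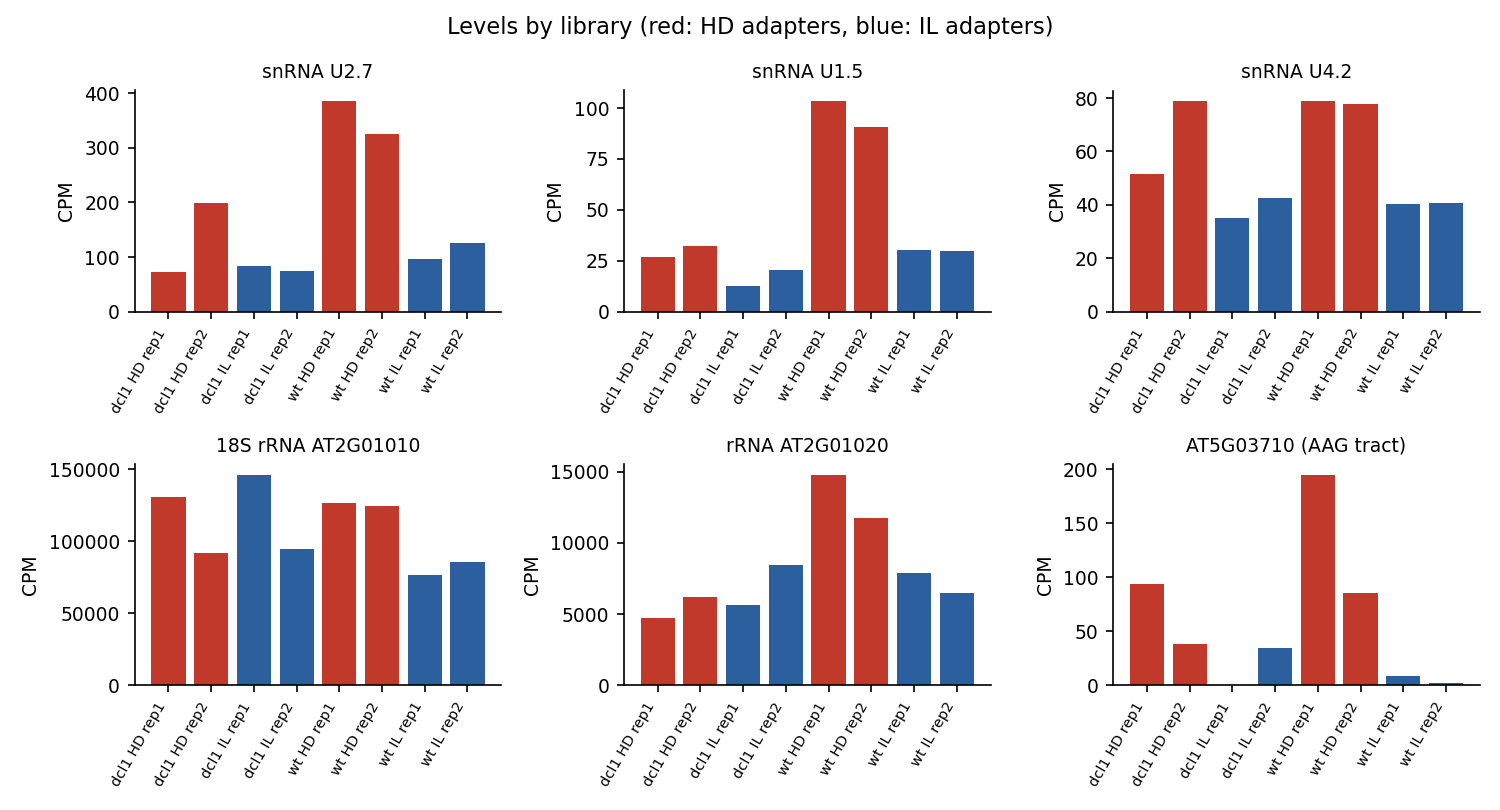
Levels in CPM of 3 snRNAs, 2 rRNA loci and the AAG tract locus AT5G03710 in each of the 8 libraries, red for HD and blue for IL adapters. U2.7 is high in dcl1 HD replicate 2 alone among the dcl1 libraries, and AT5G03710 is at 0 in dcl1 IL replicate 1.

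The other RNA classes held few calls and are set beside the 0.891% higher, the 0.517% lower and the median of 0.00 over all loci. Of 120 transfer RNA loci 1 was higher and 1 lower, with a median log2 fold of -0.94 at low counts. Of 35 small nucleolar RNAs, guides of rRNA modification, 1 was higher (2.86%), with a median of 0.49. That one, SNOR30, gave 9.55 and 5.52 CPM with HD and 1.0 and 1.29 CPM with IL, with no overlap (log2 fold 2.65, edgeR adjusted p = 0.00102). Of 104 other noncoding RNAs 3 were higher (2.88%), among them AT1G26558 with its GA tract, and the median was 0.32, with 14 higher and 2 lower at an unadjusted p under 0.05. Of 201 long noncoding RNAs 1 was higher (0.498%), with a median of 0.00. Protein-coding loci, 18957 of those tested, gave 160 higher and 96 lower.

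Transcript length and base composition went with the calls to a smaller degree. In the quintile of loci with the shortest transcripts, of 71 to 1125 bases, 2.03% were higher with HD and 0.719% were lower. In the quintile with the longest, of 2529 to 16593 bases, 0.283% were higher and 0.437% were lower. The median transcript was 1179.5 bases for loci higher with HD, 1531 bases for loci lower with HD and 1738 bases for all loci with a length. By GC content, the lowest quintile had 54 loci higher and 16 lower and the highest quintile had 32 higher and 44 lower. After a correction for GC content and length, 106 loci were higher and 60 lower. Calls also need counts: the most abundant quintile of loci held 113 of the 174 higher and 70 of the 101 lower calls.

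**Figure D5:**
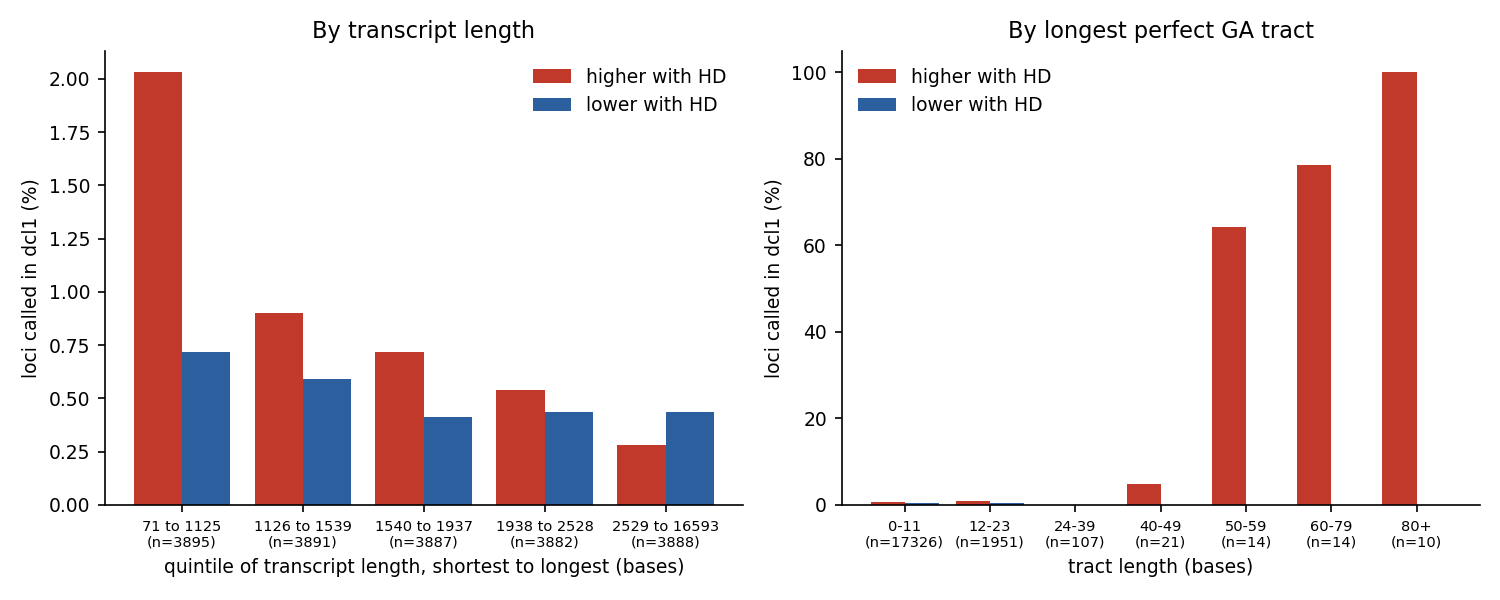
Share of loci called higher (red) or lower (blue) with HD in dcl1, by quintiles of transcript length in bases (left) and by the longest perfect GA tract in bases (right), with the number of loci tested under each bar. The share called higher falls from 2.03% to 0.283% from the shortest to the longest transcripts, and reaches 100% at tracts of 80 bases or more.

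The dcl1 calls were shared with wild type in part. Of the 174 loci higher in dcl1, 67 were also higher in wild type (38.5% of the dcl1 calls and 57.3% of the 117 wild-type calls). Of the 101 lower, 22 were also lower in wild type (21.8% of the dcl1 calls and 32.4% of the 68 wild-type calls), and 7 loci were called in opposite directions. The comparisons use no library in common but share 1 estimate of the spread. Of the 36 loci at which the adapter contrast differed between the genotypes, 13 had a log2 fold of HD over IL that was more positive in dcl1 than in wild type, and 23 one that was less positive or more negative. Beside the rRNAs, AT3G43990, a BAH-domain gene, gave 375 and 573 CPM with HD and 413 and 523 CPM with IL in dcl1 and 1506 and 1324 CPM against 355 and 355 CPM in wild type. Its groups overlapped in dcl1 and stood far apart in wild type, a difference of -1.99 on the log2 scale (edgeR adjusted p = 1.15e-50).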

How the data were processed

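Leaf mRNA-seq libraries of 4 RNA samples (wt and dcl1, 2 each) were made with HD and with IL adapters. The authors deposited whole-number read counts per locus, on TAIR10 per the submitters' processing notes. Not given in the sources used here: the aligner, the counter, and the handling of strand and multi-mapping reads. Of 22546 locus identifiers, 22444 matched the RefSeq TAIR10.1 annotation by locus tag, and 102 did not. At 213 loci with at least 100 counts the counts equalled those of another locus in all 8 libraries.

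Counts were filtered with filterByExpr, scaled by TMM and fitted over all 8 libraries with edgeR 4.0.16 (R 4.3.3, limma 3.58.1; quasi-likelihood, 2 residual degrees of freedom, prior degrees of freedom 1350), with the RNA sample as a block and an adapter term in each genotype; calls are at an adjusted p under 0.05, all tests are two-sided, and CPM uses TMM-scaled totals. The pairing comes from the design text, which says that the same RNA samples went into both kinds of library. As a check, same-numbered dcl1 libraries had deviations from their group means that correlated by 0.005 over all loci and by 0.391 over the 721 loci above 7 on the log2 CPM scale (wild type 0.082 and 0.710). Tracts are the longest perfect repeats within the annotated span of a locus. DESeq2 1.42.0 and the other alternatives are listed in the closing section.

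Named loci are the 12 with the largest fold in each direction among called loci with at least 10 CPM in 1 group and groups that do not overlap, DCL1, up to 4 loci of each class or list with the smallest p, and up to 6 of the difference between genotypes; tract examples and the other loci named were chosen after their values were seen. Comparison, classes and gene lists were chosen with earlier results of these data known, and the tract classes, the mixed runs and the split of photosynthesis genes after values were seen.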

Additional observations from a re-analysis of the deposited data

Results flagged for a closer look

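Each locus here had an adapter contrast that differed between dcl1 and wild type in edgeR's test of that difference (adjusted p under 0.05); values are the log2 fold in dcl1 minus that in wild type, and 0.184% of all loci passed. The ribosomal RNA loci AT2G01010 and AT3G41768 each differed by -0.73, and AT2G01020 and AT3G41979 each by -1.23. AT3G43990 differed by -1.99, and AT1G15405, a noncoding RNA at 10.7 and 19.6 CPM with HD and 17.1 and 22.9 CPM with IL in dcl1, differed by -2.80. The snRNA copies U2.7, U2.6 and U2.4 differed by -1.08, -1.10 and -1.10. The AAG tract loci AT5G03710 and AT1G47300 differed by -2.06 and -2.20, and the GA tract locus AT3G48820 by 1.19. AT2G07706 differed by -0.70 and the aspartate transfer RNA AT2G07743 by -1.15. The nearby loci AT3G22121, a long noncoding RNA, and AT3G22142, of the lipid transfer family, differed by 1.20 and 2.03. AT3G22142 gave 19.1 and 19.8 CPM with HD and 12.2 and 8.78 CPM with IL in dcl1, and 27.9 and 30.3 CPM with HD and 62.0 and 64.2 CPM with IL in wild type.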

How the results depend on the processing

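The alternatives were DESeq2's size factors, DESeq2, no low-count filter, no block, the 4 dcl1 libraries alone, removal of rRNA and tRNA loci, of overlapping loci or of GA and AAG tract loci, thinning to the smallest total, a GC and length correction made with the block, a log2 threshold of 1, edgeR's newer quasi-likelihood method, and each library left out; the newer method, the removal of tract loci and the alternatives of the wild-type contrast were added after seeing the data. Of the values for named loci and for the number of loci detected, 487 stayed on the same side of the threshold, 165 kept their direction and no longer passed, and 6 reversed. The reversed values are those of U2.7, U2.6 and U2.4: without dcl1 HD replicate 2 their log2 folds were -0.19, -0.17 and -0.15, and without dcl1 IL replicate 2 they were -0.20, -0.17 and -0.15, against up to 1.40, 1.36 and 1.31 without dcl1 IL replicate 1. DCL1, which was not called, ranged from -0.11 to 0.28. Of the 275 loci called in dcl1, 10 had the opposite sign, by more than 0.01, in at least 1 alternative run. Where a count moved by over 1.5 times, the cause was not tested, except that settings with fewer loci or libraries test less.

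Without the replicate block the count of loci higher in dcl1 went from 174 to 34 and of loci lower from 101 to 0; in wild type from 117 to 45 and from 68 to 4; of the difference between genotypes from 36 to 5. Without the block the AAG, snRNA, rRNA, antenna and photosystem counts (7, 8, 4, 13 and 8) all fell to 0, and the cell wall count fell from 10 to 1. The dcl1 libraries alone gave 102 higher and 60 lower in dcl1, and give no wild-type value or difference. Without overlapping loci the counts were 85 and 66 in dcl1, 51 and 29 in wild type, 16 for the difference, 17 for GA tracts (31 before), 4 for snRNA, 1 for rRNA, 8 for antenna, 3 for photosystem and 5 for cell wall genes. Thinned, they were 109 and 60 in dcl1, 43 lower in wild type, 23 for the difference and 4 for snRNA. With the GC and length correction and the block, they were 106 and 60 in dcl1, 72 and 43 in wild type, 18 for the difference, 1 for snRNA and 2 for rRNA. DESeq2 gave 16 for the difference, 0 for AAG tracts, 2 for snRNA and 2 for rRNA. The newer method gave 70 and 35 in dcl1, 35 lower in wild type, 9 for the difference, 0 for AAG tracts, 1 for snRNA, 2 for rRNA and 6 for cell wall genes. Without the tract loci wild type had 76 higher. With a log2 threshold of 1 the counts were 72 and 15 in dcl1, 65 and 8 in wild type, 0 for snRNA, 0 for rRNA, 0 for antenna, 0 for photosystem and 2 for cell wall genes.

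With each library left out in turn, the counts ranged from 100 to 278 higher and 33 to 318 lower in dcl1, 37 to 179 higher and 4 to 129 lower in wild type, and 9 to 170 for the difference. They ranged from 24 to 31 for GA tracts, 0 to 9 for AAG tracts, 1 to 8 for snRNA, 2 to 4 for rRNA, 10 to 12 for antenna, 3 to 8 for photosystem and 1 to 15 for cell wall genes. Class counts were not computed where the class itself was removed.

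The design limits what can be said: each adapter contrast has 2 pairs, the fit leaves 2 residual degrees of freedom, and the moderated spread is borrowed from other loci. The shallowest library, dcl1 HD replicate 2, holds 15772958 counts. Counts of the loci lower with HD, the AAG tracts, the snRNAs and the photosystem subunits changed with the pair left out and with the block, whereas 23 GA tract loci passed in every alternative run for them other than the log2 threshold of 1.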

Other observations

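Gene lists outside the classes above held few calls, and are set beside the 0.891% higher and 0.517% lower over all loci. Of 45 lipid transfer protein genes tested 2 were higher (4.44%) and 0 lower. Of 15 small secreted defence peptides tested 1 was higher and 1 lower (6.67% each). Of 291 cytosolic ribosomal protein genes 1 was higher with HD and 4 were lower, with a median log2 fold of -0.04; emb2386, of the L19e family, gave 184 and 165 CPM with HD and 227 and 265 CPM with IL (log2 fold -0.49, edgeR adjusted p = 0.00406). Of 135 heat shock proteins and chaperones 2 were higher and 2 lower, the lower ones being the endoplasmic reticulum chaperones BIP1 (91.7 and 68.0 against 117 and 107 CPM) and BIP2 (87.1 and 69.2 against 116 and 102 CPM), whose sequences are near copies. RbcX1, a chaperonin-like protein that assists the assembly of Rubisco, was higher at 97.7 and 92.6 CPM with HD and 60.8 and 58.8 CPM with IL (log2 fold 0.67, edgeR adjusted p = 0.00121). Of 65 microRNA target genes 1 was higher, the copper/zinc superoxide dismutase CSD2 (266 and 302 CPM with HD, 232 and 197 CPM with IL, log2 fold 0.41, edgeR adjusted p = 0.0190). Of 33 genes of the small RNA machinery 1 was higher, SQN with its GA tract.

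By edgeR 0 of 260 pentatricopeptide repeat genes, 0 of 222 receptor-like kinases, 0 of 141 cytochrome P450s and 0 of 40 histone genes were called, and DESeq2 also called 0 in each. At an unadjusted p under 0.05 these lists held 3, 12, 6 and 0 higher and 8, 12, 8 and 1 lower loci. AT1G48400, an F-box gene chosen here after its values were seen, was counted at 18.6 CPM in dcl1 HD replicate 2 and listed at 0 CPM in the other 3 dcl1 libraries.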
